A study of Homo sapiens with 4 samples.

Results

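The genes described here encode S100 proteins and lie in band 1q21 of chromosome 1. They are S100A2, S100A4, S100A6, S100A8, S100A9, S100A10, S100A11, S100A13, S100A14 and S100A16. Their values come from PAS-seq, a method that reads the ends of polyadenylated transcripts, so that each cluster of reads marks where transcripts were cleaved. A cluster was given to a gene when its dominant site, the base with the most tags, lay in the span of that gene on the same strand in GENCODE version 44 (GRCh38). Of the 10 genes, 8 had such a cluster, with 9 clusters among 17627 in all, and 12029 genes had a cluster in at least 1 library. No cluster is listed in the span of S100A8 or S100A9 in any library.

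The 4 libraries come from KYSE30 and TE-1, established human cell lines of esophageal squamous cell carcinoma. Each line was kept for 24 h with 20 mM L-lactate or, as control, with PBS, and gave 1 library per condition. The cell line field of the control samples names KYSE32 and TE-3, whereas their titles and the study name KYSE30 and TE-1, and the titles were followed. Across the 12344 clusters listed in all 4 libraries, which are not independent replicates, each control ranked clusters most like the L-lactate library of the same line (Spearman's rho 0.985 in both lines, against 0.808 to 0.819 between lines). Each line is a single cell population, and nothing states that the libraries came from repeated cultures.

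S100 proteins are small calcium-binding proteins with EF-hand motifs that mostly work as dimers. Calcium binding exposes a surface that holds target proteins such as annexins, cytoskeletal proteins and membrane receptors. Most of the family is encoded in 1q21, next to the genes of the cornified envelope, and several members are expressed in the squamous epithelium of skin and esophagus. S100A8 and S100A9 form calprotectin, which is abundant in neutrophils and can be induced in stressed epithelium.

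The level of a gene is given as TPM, the tags in its clusters per 1000000 tags of the library, with no division by length. The libraries held between 7174991 and 10393799 tags, and the lowest TPM listed was between 1.058 and 1.115, or 8 to 11 tags. Clusters of a single base were listed only from TPM 3 upwards. A gene that is not listed may therefore still have held some tags. Intervals on ratios and shares cover counting error only. In bulk samples, fewer cells of a type and less RNA per cell cannot be told apart.

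The sites at which the S100 transcripts were cleaved are shown first, because a single cluster per gene carried nearly all of the levels that follow. Each sequence is the last 30 bases of the transcript up to and including the dominant site, read from GRCh38 on the minus strand and written as DNA. Capitals mark the hexamer taken as the poly(A) signal, the element bound by the cleavage and polyadenylation specificity factor.
S100A2, chr1:153561345-153561374: tgtattcAATAAActttttttgtctgttga
S100A4, chr1:153543620-153543649: caagttcAATAAAgattcttggaagttttg
S100A6, chr1:153534599-153534628: tgtacAATAAAttttttttggtcaaattta
S100A10, chr1:151982917-151982946: ctcaataAATAAAgttcttttttagttcca
S100A11, chr1:152032507-152032536: ataaagcaatgtcactttTTTAAAacatga
S100A13, chr1:153618807-153618836: cactcttcccaAATAAAgcttcctccttga
S100A14, chr1:153614257-153614286: ttgattAATAAAaaaaaatgaaaaaagtga
S100A16, chr1:153606888-153606917: atgctcATTAAAaccttcccactccttgga

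AATAAA was present in this window for S100A2, S100A4, S100A6, S100A10, S100A13 and S100A14, with 12 to 18 bases between it and the site. S100A16 held the common variant ATTAAA, with 17 bases in between. S100A11 held neither in full within the 30 bases. The search went on to the variants AGTAAA or TATAAA or CATAAA or GATAAA or AATATA or AATACA or AATAGA or ACTAAA or AAGAAA or AATGAA or TTTAAA on the transcript strand. It took TTTAAA, with 5 bases in between. The S100A11 window opens with ATAAA, so a hexamer that starts 1 base before the window would have been missed. That base was not examined, and whether TTTAAA is the signal used is not known. Of 1538 clusters on chromosome 1 with TPM above 5 in at least 1 library, 62.2% had AATAAA in this window and a further 17.4% had ATTAAA without it. The dominant sites of all but S100A4 lay in the last exon and 3′ UTR of the canonical transcript, and that of S100A4 lay 1 nt past the end of its canonical transcript, inside the gene span. The distance from the end of the coding sequence to the site was shortest for S100A13, at 88 nt, and longest for S100A16, at 646 nt.

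The sequence TGTA, the core of the motif bound by the CFIm complex, is of interest because the study concerns the CFIm subunit NUDT21. It occurred in the 100 bases before the site in S100A2, S100A6, S100A10, S100A14 and S100A16, on the transcript strand. In S100A2 and in S100A6, 25 bases lay between the nearest copy and the site. It was not found in this window for S100A4, S100A11 or S100A13. Of the 1538 clusters on chromosome 1, 58.1% held it.

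The S100 genes together held more of the transcript ends in KYSE30 than in TE-1. Their clusters took 1.29% of all tags in the KYSE30 control and 1.36% with L-lactate, against 0.749% in the TE-1 control and 0.743% with L-lactate. S100A6, S100A10 and S100A11 supplied between 83.2% and 88.7% of this sum in every library. Levels ranged from 5687 TPM for S100A6 in KYSE30 with L-lactate down to 1.06 TPM for S100A14 in the TE-1 control, as the plot of levels by library shows.

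**Figure D1:**
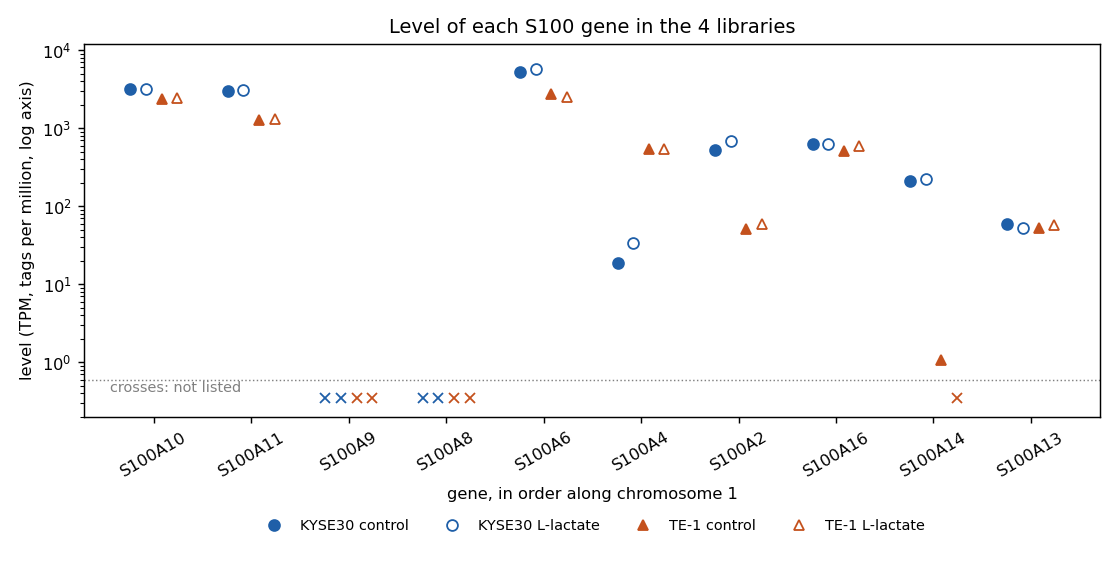
Level of each S100 gene in TPM (log axis) in the 4 libraries, with genes in their order along chromosome 1, circles for KYSE30, triangles for TE-1, filled symbols for controls and open symbols for L-lactate. Crosses mark libraries in which the gene has no listed cluster. S100A2 and S100A14 sit higher in both KYSE30 libraries than in either TE-1 library and S100A4 sits higher in both TE-1 libraries, while S100A13 lies between 52.3 and 59.7 TPM in all 4.

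In KYSE30 the order from high to low was S100A6, S100A10, S100A11, S100A16 and S100A2, S100A14, S100A13 and S100A4. S100A16 and S100A2 could not be ordered, since the range of S100A2 over the 2 libraries contained that of S100A16. In TE-1, S100A6, S100A10 and S100A11 again came highest. S100A4 followed at the level of S100A16, with overlapping ranges, and S100A2 and S100A13 overlapped lower down. These orders compare 3′ ends counted per transcript, and how well each end was captured is not known.

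The first comparison asked how the S100 genes differ between the cell lines. Each line had 2 libraries that differ in treatment, and the fit used line and treatment as terms, so that its error is the spread of the line difference between the treatments. With limma on log2(TPM + 1) over the 9763 genes with a mean TPM of at least 5, 5 of the 8 measured S100 genes were higher in KYSE30 (S100A2, S100A6, S100A10, S100A11 and S100A14), 1 was higher in TE-1 (S100A4), and S100A13 and S100A16 did not pass an adjusted p of 0.05. The lines differed widely: 34.1% of all genes tested were called higher in KYSE30 and 34% higher in TE-1. The median difference (KYSE30 minus TE-1, log2) was 0.75 over the 8 S100 genes and 0.00 over all genes tested. With 1 residual degree of freedom before moderation, the p-values rest largely on the spread borrowed from other genes.

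S100A14 showed the largest difference between the lines. It encodes a member that binds calcium weakly and is expressed in many epithelia. Its level was 208 TPM in the KYSE30 control and 225 TPM with L-lactate, but only 1.06 TPM in the TE-1 control, and it was not listed in TE-1 with L-lactate. The TE-1 control value rests on 11 tags, against 1548 in the KYSE30 control. The lines did not overlap. The ratio of the controls was 197 (95% counting interval 110 to 395). On the log2(TPM + 1) scale the fitted difference was 7.25 ± 0.30 (SE, limma adjusted p = 0.000103), a size reached by 41 of the 9763 genes tested, or 0.42%. This size depends on the pseudocount, at 9.32 with 0.1 and 5.33 with 5.

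S100A2, a member first described for its loss in tumor cells and found in basal cells of stratified epithelium, was also far higher in KYSE30. It stood at 533 TPM in the KYSE30 control and 690 TPM with L-lactate. In TE-1 it was at 51.7 TPM in the control and 58.9 TPM with L-lactate. Both KYSE30 libraries were thus above both TE-1 libraries, by 10.3 times in the controls (9.43 to 11.3) and 11.7 times with L-lactate (10.7 to 12.9). The fitted log2 difference was 3.44 ± 0.11 (SE, limma adjusted p = 5.34e-05), and 8.04% of genes tested differed by at least as much.

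S100A4, also known as metastasin, binds non-muscle myosin and is used as a marker of fibroblasts and motile cells. It was the S100 gene with the opposite difference. It was at 19.0 TPM in the KYSE30 control and 34.0 TPM with L-lactate, and at 539 and 543 TPM in the TE-1 control and L-lactate libraries. TE-1 exceeded KYSE30 by 28.4 times in the controls (24.03 to 33.8) and by 15.98 times with L-lactate (14.04 to 18.2). The fitted difference, KYSE30 minus TE-1, was -4.36 ± 0.22 on the log2 scale (SE, limma adjusted p = 0.000197), and 4.3% of genes tested differed by at least as much in either direction.

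The abundant members differed less. S100A6, or calcyclin, binds annexins and the CACYBP ubiquitin ligase adaptor. Its level was 5228 TPM in the KYSE30 control and 5687 TPM with L-lactate, against 2707 and 2480 TPM in TE-1, and it ranked 8th among genes in both KYSE30 libraries. The fitted difference was 1.07 ± 0.12 (log2, SE, limma adjusted p = 0.00195). S100A11, which binds annexin A1, was at 2977 and 3094 TPM in the KYSE30 control and L-lactate libraries and at 1268 and 1299 TPM in those of TE-1. Its difference was 1.24 ± 0.10 (log2, SE, limma adjusted p = 0.00086).

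S100A10, the partner of annexin A2, no longer binds calcium and is held in its active form. It was at 3206 and 3180 TPM in the control and L-lactate libraries of KYSE30 and at 2361 and 2406 TPM in those of TE-1. Although the lines did not overlap, the ratio was only 1.36 in the controls (1.33 to 1.38) and 1.32 with L-lactate (1.30 to 1.35). The fitted difference was 0.42 ± 0.10 (log2, SE, limma adjusted p = 0.0213), and 64.4% of genes tested differed by at least this size.

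S100A16 and S100A13 differed least. S100A16, a widely expressed member, was at 633 and 625 TPM in the KYSE30 control and L-lactate libraries and at 512 and 586 TPM in those of TE-1. Both KYSE30 values were higher, but the fitted difference of 0.20 ± 0.11 (log2, SE) did not pass (limma adjusted p = 0.186). With a variance trend on level, chosen after seeing the data, it did (adjusted p = 0.0235). S100A13, which takes part in the release of FGF1 and IL1A without a signal peptide, was at 59.7 and 52.3 TPM in KYSE30 and at 52.9 and 58.3 TPM in TE-1, in the same order. Its ranges overlapped fully between lines, with a fitted difference of 0.01 ± 0.13 (log2, SE, limma adjusted p = 0.965).

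**Figure D2:**
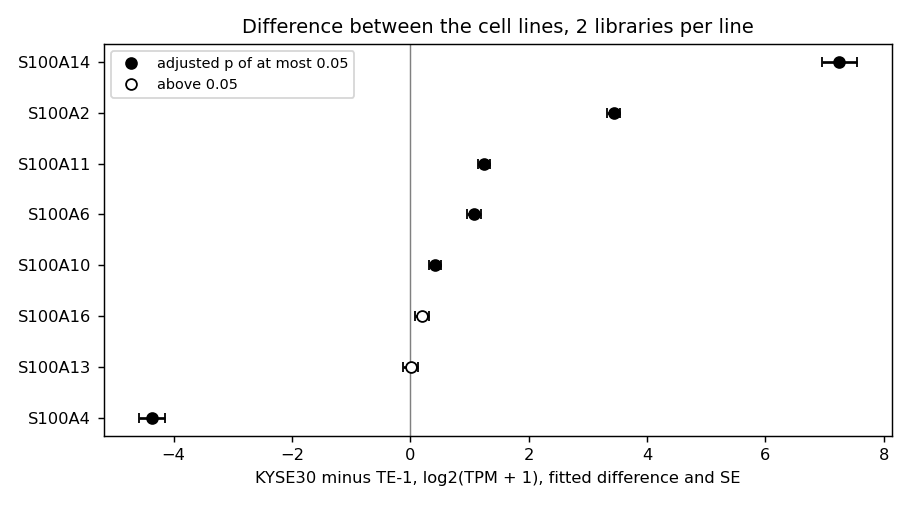
Fitted difference between the lines (KYSE30 minus TE-1, log2 of TPM + 1) for the 8 measured S100 genes, with bars of 1 SE from limma over 2 libraries per line. Filled points pass an adjusted p of 0.05. The values run from -4.36 for S100A4 to 7.25 for S100A14, with S100A16 and S100A13 near 0.

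Measured S100 genes near each other differed in direction or in size. From S100A6 to S100A13, 6 of the measured genes lie within 96.8 kb, all on the minus strand. The span of S100A4 lies 7.37 kb from that of S100A6 and 10.97 kb from that of S100A2, the nearest measured genes on either side. Yet S100A4 was higher in TE-1, and S100A6 and S100A2 were higher in KYSE30. S100A14 lies 1.11 kb from S100A16 on one side and 1.80 kb from S100A13 on the other. It showed the largest difference of the measured S100 genes, whereas S100A16 and S100A13 were those that did not pass the test.

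**Figure D3:**
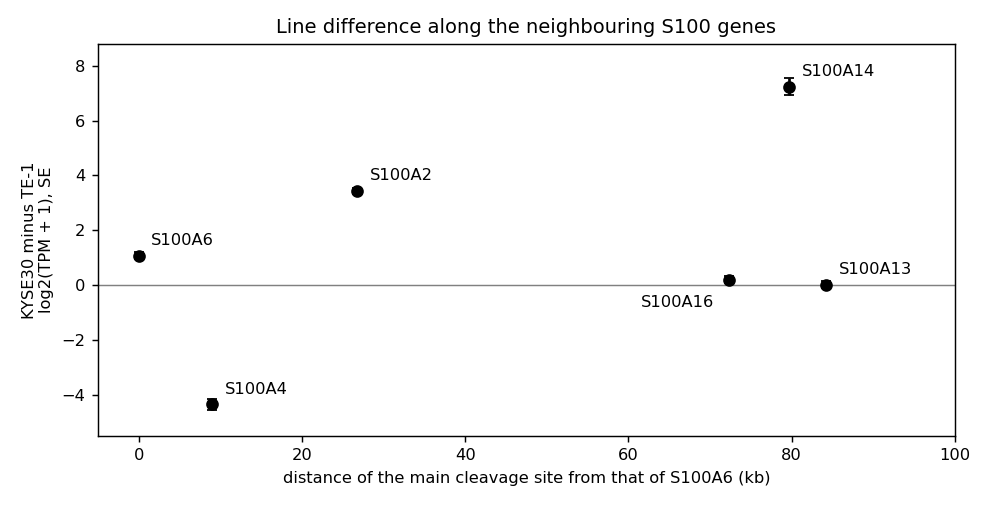
Fitted line difference (KYSE30 minus TE-1, log2 of TPM + 1, bars of 1 SE) against the distance in kb of the dominant cleavage site of each gene from that of S100A6. S100A4 at 9.02 kb lies far below 0 between S100A6 and S100A2, and S100A14 at 79.7 kb stands at 7.25 between S100A16 and S100A13 near 0.

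Within the 1648 kb that holds all 10 genes, few other clusters are listed. The cornified envelope genes IVL, SPRR1A, SPRR1B and SPRR3, whose products are crosslinked into the envelope of terminally differentiated squamous cells, were listed in both KYSE30 libraries and in neither TE-1 library. SPRR3 was at 242 TPM in the KYSE30 control and 283 TPM with L-lactate, and IVL at 61.9 and 53.0 TPM. SPRR1B was at 41.7 and 59.2 TPM and SPRR1A at 16.8 and 17.7 TPM. These are 4 of 23 epidermal differentiation genes of 1q21 looked up, and no cluster is listed for the other 19, among them LORICRIN and FLG. Over all 12029 genes with a cluster, 7.69% were listed in both KYSE30 libraries and in neither TE-1 library, and 6.04% the other way. In the gap between S100A4 and S100A2, a cluster on the plus strand with no annotated gene (chr1:153552389-153552401) was listed in TE-1 only, at 8.76 TPM in the control and 6.49 TPM with L-lactate. A cluster on the plus strand with no annotated gene near SPRR3 (chr1:153005095) was listed in KYSE30 only, at 1.89 and 2.93 TPM. A cluster on the minus strand, in ENSG00000285867, lay 1.88 kb past the end of S100A16, at 10.8 and 14.6 TPM in KYSE30 and 4.71 and 8.74 TPM in TE-1.

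Of 11 other S100 genes, S100P and S100A3 had a cluster, and no cluster is listed for S100A1, S100A5, S100A7, S100A7A, S100A7L2, S100A12, S100B, S100G and S100Z. S100P, which lies on chromosome 4, was at 18.0 and 12.1 TPM in the KYSE30 control and L-lactate libraries and at 14.6 and 12.3 TPM in those of TE-1, and the lines overlapped (limma adjusted p = 0.387). The only cluster of S100A3 was shared with S100A4 and is described with the sites.

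The binding partners and receptors of S100 proteins were looked up as a list of 24 genes, of which 17 were tested. Of these, 7 were higher in KYSE30, 7 were higher in TE-1 and 3 did not pass, near the background shares. The partners with the highest mean TPM over all libraries, ANXA2, ANXA1, AHNAK and MYH9, were higher in KYSE30. Those next by mean TPM, BSG, ANXA5, CACYBP and IQGAP1, were called higher in TE-1. BSG differed by -0.90 ± 0.10 (log2, SE, limma adjusted p = 0.00215) and ANXA5 by -1.23 ± 0.10 (adjusted p = 0.000912). IQGAP1 differed by -0.36 ± 0.10 (adjusted p = 0.0339). In TE-1, BSG at 533 and 523 TPM and ANXA5 at 497 and 522 TPM exceeded AHNAK and MYH9. ANXA2, the partner of S100A10, was at 3817 and 3646 TPM in KYSE30 against 1761 and 1712 TPM in TE-1, a difference of 1.10 ± 0.10 (log2, SE, limma adjusted p = 0.00119). ANXA1, the partner of S100A11, differed by 1.35 ± 0.10 (limma adjusted p = 0.000717). AHNAK, a large scaffold bound by S100A10 with ANXA2, was higher in KYSE30 too (0.53 ± 0.12, adjusted p = 0.019). MYH9, the non-muscle myosin bound by S100A4, was higher in KYSE30 (0.67 ± 0.10, adjusted p = 0.00526), the line in which S100A4 was low. CACYBP, a partner of S100A6 named here after its values were seen, was higher in TE-1 (-0.87 ± 0.11, adjusted p = 0.00275), the line in which S100A6 was lower. ANXA6 and MCAM were listed only in TE-1, at 102 and 100 TPM for ANXA6 and 52.5 and 50.8 TPM for MCAM. AGER, the receptor RAGE, was at 12.7 and 12.3 TPM in KYSE30 and 4.81 and 4.84 TPM in TE-1.

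Some clusters end just past an annotated gene end and fall outside a span. With spans extended by 24 nt, a choice made after seeing the data, 447 more genes had a cluster, and the clusters of the S100 genes stayed at 9. NPTN and HLTF then joined the tested partners, giving 8 higher in KYSE30, 8 higher in TE-1 and 3 not called, with 34.3% and 33.9% of all 10124 genes tested called in those directions.

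Markers of cell state differed between the lines as well, and their part in the S100 differences was not tested. With extended spans, 5 of 8 squamous epithelium markers were listed and 4 were called higher in KYSE30, where 34.3% of all genes tested were. Their summed level was 1058 to 1086 TPM in KYSE30 and 392 to 474 TPM in TE-1. Without the extension, which added TP63 and SFN, 3 were listed. Of these, 2 were called higher in KYSE30 and 1 in TE-1, against 34.1% and 34% of all genes tested. KRT13, TP63 and KRT6A were listed in KYSE30 only and KRT17 in TE-1 only, and no cluster is listed for KRT5, KRT14 or DSG3, although both lines derive from squamous carcinoma. All 6 simple epithelium markers were listed. With extended spans, 5 were called higher in KYSE30 and 1, KRT7, higher in TE-1, against background shares of 34.3% and 33.9%. With these spans the 6 markers summed to 5302 to 5366 TPM in KYSE30 against 1804 to 1860 TPM in TE-1. Without the extension, KRT7 was at 440 and 357 TPM in KYSE30 and at 647 and 623 TPM in TE-1. CDH1 was at 204 and 228 TPM in KYSE30, and in TE-1 it was listed only with L-lactate, at 1.30 TPM.

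Of 8 mesenchymal markers, 7 were listed with extended spans, with a sum of 82.9 to 136 TPM in KYSE30 and 1037 to 1045 TPM in TE-1. Of the 4 tested, 3 were called higher in TE-1 and 1 in KYSE30, against 33.9% and 34.3% of all genes tested. Without the extension, which added VIM, 6 were listed. Of the 3 tested, 2 were called higher in TE-1 and 1, FN1, in KYSE30, against 34% and 34.1% of all genes tested. The order of the sums was reversed. They were then 76.2 to 130 TPM in KYSE30 and 53.1 to 55.4 TPM in TE-1. VIM supplied most of the sum over extended spans in TE-1 only. It was at 5.66 and 6.69 TPM in the KYSE30 control and L-lactate libraries and 991 and 982 TPM in those of TE-1. In KYSE30 the sum was mostly FN1, at 128 TPM in the control and 74.1 TPM with L-lactate, which was listed in TE-1 only in the control, at 2.60 TPM. COL1A2 is not listed. None of the 8 leukocyte markers was listed, and S100A8 and S100A9, which those cells express strongly, were not listed either. Of 3 endothelial markers only CDH5 was listed, at 16.2 and 11.2 TPM in KYSE30. No gene of these lists was called for L-lactate.

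The second comparison asked whether L-lactate altered the S100 genes. Over both lines, the limma fit called 0% of the 9763 genes, and 7.44% had an unadjusted p under 0.05, none of them an S100 gene. With a pseudocount of 5 it called 2 genes and with a variance trend 1, and with voom on whole tags 0. The adjusted p of the S100 genes was 0.674 or higher, the lowest being that of S100A2, whose fitted L-lactate difference was 0.28 ± 0.11 (log2, SE). With only 2 lines as repeats, a difference that held in 1 line cannot be tested here, nor can the difference of the response between lines. The median L-lactate difference was 0.03 (log2) over the 8 S100 genes and 0.02 over all genes tested.

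Within KYSE30, S100A4 was the only S100 gene to change by at least 1.5 times. It went from 141 tags in the control to 244 with L-lactate, or 1.79 times (95% counting interval 1.45 to 2.22). Over all tested genes in KYSE30, 1.87% were at least 1.5 times higher with L-lactate and 2.06% at least 1.5 times higher in the control. S100A4 in TE-1, where it was abundant, stood at 1.01 times the control (0.969 to 1.05). With 1 library per condition, whether the KYSE30 rise exceeds the spread between cultures is not known.

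S100A2 was above the control in both lines, at 1.30 times in KYSE30 (1.24 to 1.35) and 1.14 times in TE-1 (1.01 to 1.29). S100A16 was at 1.14 times the control in TE-1 (1.10 to 1.19) and at 0.987 times in KYSE30 (0.948 to 1.03). S100A14 was at 1.08 times in KYSE30 (1.01 to 1.16). S100A6 moved in opposite directions, to 1.09 times in KYSE30 (1.07 to 1.10) and 0.916 times in TE-1 (0.8999 to 0.933). These intervals are narrow because the genes are deeply counted, and they leave out the variation between cultures.

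S100A10 and S100A11 stayed close to the control. S100A10 was at 0.992 times in KYSE30 (0.974 to 1.01) and 1.02 times in TE-1 (1.00 to 1.04), and S100A11 at 1.04 times in KYSE30 (1.02 to 1.06) and 1.02 times in TE-1 (0.999 to 1.05). S100A13 stood at 0.876 times in KYSE30 (0.761 to 1.01) and 1.10 times in TE-1 (0.974 to 1.247), and both intervals include equality. In TE-1, 2.54% of tested genes were at least 1.5 times higher with L-lactate and 1.52% at least 1.5 times higher in the control. On log2(TPM + 1), S100A14 counts among the latter in TE-1, but only by going from 11 tags to below the listed range, so that no ratio is given.

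**Figure D4:**
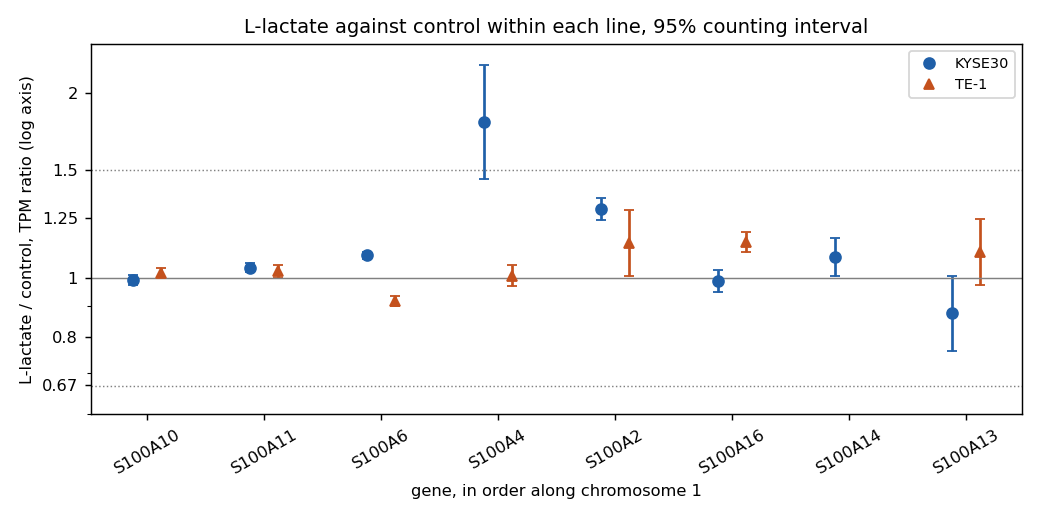
Ratio of TPM with L-lactate to control (log axis) for each S100 gene within KYSE30 (circles) and TE-1 (triangles), with 95% counting intervals, 1 library per condition, and dotted lines at 1.5 times in either direction. S100A4 in KYSE30, at 1.79, is the only point past a dotted line. S100A14 in TE-1 has no ratio.

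The third comparison asked whether the cleavage sites themselves moved. None of the S100 genes changed its dominant site. Among clusters with TPM above 5 in both libraries compared, 0 of 8 S100 clusters moved by more than 24 nt with L-lactate in KYSE30, where 1.43% of all clusters did, and 0 of 7 in TE-1, where 1.24% did. Between the controls of the lines, 0 of 7 moved, against 2.06% of all clusters. The 7 S100 clusters with TPM above 5 in all 4 libraries kept the same base throughout, as did 90.4% of all such clusters. With so few clusters and such low background shares, counts of 0 do not set the S100 genes apart.

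The S100 genes differed in how tightly they were cleaved. S100A13 placed 96.6% to 97.8% of its tags at a single base over the 4 libraries, S100A11 96.4% to 96.7%, S100A10 91.6% to 92.8% and S100A6 91.6% to 91.9%. For S100A14 the share was 97.5% in the KYSE30 control and 98.1% with L-lactate, and 90.9% of only 11 tags in the TE-1 control. S100A2 placed 83.4% to 84.6% there. S100A16 and S100A4 were less focused, at 51.7% to 53.7% and 39.7% to 44.3%. The lower and upper quantile positions spanned 2 bases for S100A16 and 3 for S100A4 in every library. The median over the 8909 clusters with TPM above 5 in all libraries was 75% in the KYSE30 control and 75.2% in the TE-1 control.

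These shares hardly varied between libraries, even where the level did. S100A4 differed 28.4 times in level between the controls, but its share at the dominant site was 39.7% in the KYSE30 control (Wilson 95% interval 32.0% to 48.0%) and 44.01% in the TE-1 control (42.7% to 45.3%). S100A2 stood at 83.8% in both controls. The intervals of any 2 libraries overlapped in every S100 gene but S100A10, whose share in TE-1 was 91.6% in the control (91.3% to 92.0%) and 92.8% with L-lactate (92.4% to 93.1%), the latter also above both KYSE30 libraries.

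**Figure D5:**
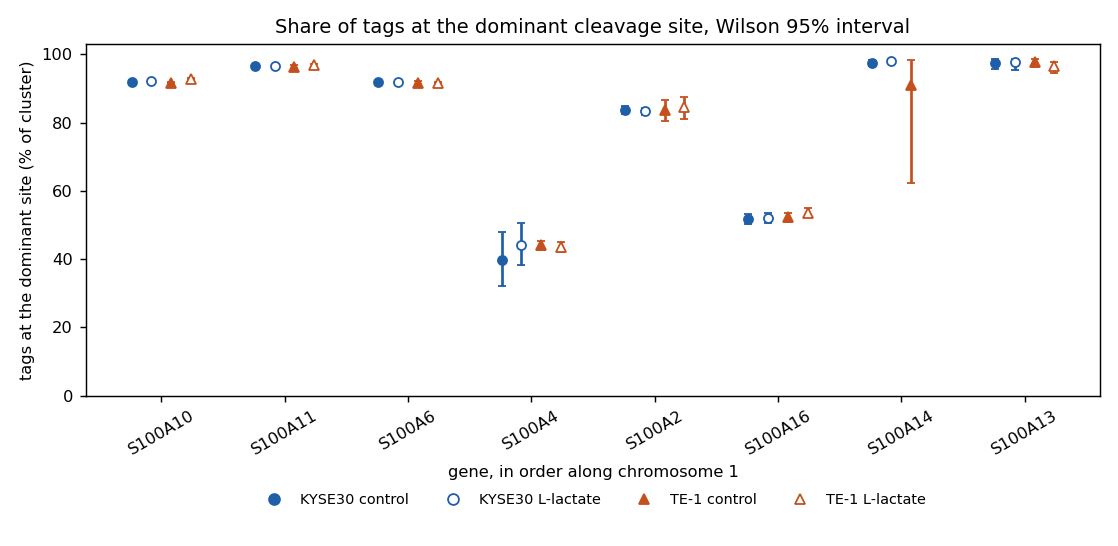
Percent of the tags of each S100 cluster at its dominant cleavage site in the 4 libraries, with Wilson 95% intervals (counting error only), circles for KYSE30, triangles for TE-1, filled for control and open for L-lactate. S100A13 and S100A11 lie above 96% in all 4 libraries, S100A16 between 51.7% and 53.7% and S100A4 between 39.7% and 44.3%, and the wide bar of S100A14 in the TE-1 control rests on 11 tags.

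S100A2 was cleaved well before the end of its canonical transcript. Its dominant site lay 237 nt upstream of that end and 2 nt from the end of another annotated transcript, 94 nt after the coding sequence. The cluster reached over 237 nt to the distal end, but in each library at most 16.6% of its tags lay anywhere other than the dominant base. In both KYSE30 libraries the lower and upper quantile positions fell on the dominant base, and in both TE-1 libraries they spanned 2 nt. The other S100 genes ended within 8 nt of the canonical end.

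S100A4 was the only S100 gene with a further cluster. It lay 3.71 kb upstream of the main site (chr1:153547328-153547331, minus strand), within the spans of both S100A4 and S100A3 and 2 nt upstream of an annotated end of S100A3. It was listed in TE-1 only, at 3.75 TPM in the control and 3.19 TPM with L-lactate, or 0.696% (0.509% to 0.9496%) and 0.587% (0.404% to 0.852%) of the tags of S100A4. By position it is thus far closer to an end of S100A3 than to one of S100A4. Given to S100A3, it moved the fitted line difference of S100A4 to -4.35. Its last 30 bases, printed because it is the only other cleavage site of the group, carry AATAAA with 11 bases between it and the site.
S100A4 and S100A3, chr1:153547331-153547360: tatttaactcctAATAAAaaactggcatca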

How the data were processed

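PAS-seq was done by the authors on 4 libraries, 1 per condition in each line. In the deposited tables the TPM values, which are RPM (the tags of a cluster per 1000000 tags of its library), were made by the authors with CAGEr. Per their methods, sites under TPM 1 were excluded, sites within 24 nt were joined, single sites under TPM 3 were removed, and clusters with TPM above 5 within 500 nt were joined further. Clusters below these limits are not listed and were taken as 0 in sums. The spacing of the TPM values gave whole tag numbers for every cluster and 7174991 to 10393799 tags per library, with 92.5% to 93.1% of them in listed clusters.

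Clusters were placed by their dominant site in GENCODE 44 gene spans, and 1388 clusters in several spans counted in each. limma 3.58.1 in R 4.3.3 was fitted to log2(TPM + 1) with line and treatment as terms over 9763 genes with a mean TPM of at least 5, with Benjamini-Hochberg adjustment, and was tested on simulated data. Within a line no test was run. Ratios carry exact conditional binomial 95% intervals and shares Wilson intervals. Genes named beyond the S100 genes are, in each list, up to 4 of highest mean TPM and up to 2 with the largest called line difference, with others named for their role or as list members. The S100 genes and the lists were chosen with earlier results of these data known. Tables were handled with pandas 2.3.3 and NumPy 2.4.6 under Python 3.11.15, intervals came from SciPy 1.17.1 and plots from matplotlib 3.10.9. Alternatives changed the pseudocount, filter, scaling, model, cluster assignment and thresholds.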

Additional observations from a re-analysis of the deposited data

Results flagged for a closer look

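S100A6 was singled out because its L-lactate ratio lay on opposite sides of 1 in the lines, each past its counting interval. On log2(TPM + 1), the ratio was 0.12 in KYSE30 and -0.13 in TE-1, and the first minus the second was 0.25. With 1 library per condition in each line, this difference was not tested.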

How the results depend on the processing

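Under 11 alternative fits, the 5 S100 genes called higher in KYSE30 and S100A4, called higher in TE-1, kept their direction and stayed past the threshold. The nearest to it was S100A10 (adjusted p 7.54e-05 to 0.0458). S100A16 was called only with the variance trend (log2 difference 0.199), giving 6 genes higher in KYSE30, and its adjusted p was 0.0235 to 0.24. Values near 0 changed sign: S100A13 between lines to -0.0012 with size factors and -0.156 in the L-lactate libraries alone, and the L-lactate difference of S100A6 to 0.00684 with voom and of S100A10 to -0.0149 with size factors. With size factors the TE-1 L-lactate log2 ratios became -0.0142 for S100A10, -0.00673 for S100A11 and -0.0312 for S100A4. No S100 gene was called for L-lactate in any of 10 alternative fits, while the number of genes called rose to 2 with a pseudocount of 5 and 1 with the variance trend. S100 genes past the fold threshold in KYSE30 numbered 2 with the lower fold tried and 0 at 2 times, and in TE-1 0 with a pseudocount of 5. Counting all listed clusters, 1 S100 gene had more than 1 cluster. No other log2 value changed sign. The variance trend, voom, the nearest transcript end and the extended spans were chosen after seeing the data. The edgeR and DESeq2 alternatives were not run, since low values are not listed. L-lactate was compared with the control of the same line through the line term, and the labels give no replicate numbers for further pairing.

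With 1 library per condition in each line, the spread between cultures is unknown. The line fit has 1 residual degree of freedom, and treatment and repeat coincide in it. Depth limits S100A14 in TE-1 (11 tags) and the TE-1 cluster upstream of S100A4 (27 and 39 tags). Levels below about 1 TPM, or below 3 TPM for a single base, are not analysed here. S100A8 and S100A9 had no listed cluster, and whether they fell below these limits cannot be told.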
